A study of Homo sapiens with 6 samples.

Results

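The adherens junction and desmosome genes described here are 10 genes of epithelial cell-to-cell adhesion, chosen by name and read from their rows in a table of 58735 genes. They are the E-cadherin gene CDH1, the catenin genes CTNNA1, CTNNB1, CTNND1 and JUP, the desmosomal cadherin genes DSG2 and DSC2, the desmoplakin gene DSP and the plakophilin genes PKP2 and PKP3. All 10 were found and all 10 passed the low-count filter, with 288 to 14580 counted reads per gene and library. The libraries came from HCT116, an established human colorectal carcinoma line. The SETD8 group (n = 3) overexpressed SETD8, a lysine methyltransferase acting on histones (current gene symbol KMT5A), and the vector group (n = 3) received an empty vector and is given as WT in the genotype label. Cells of both groups were transduced with lentivirus and selected with puromycin as stable clones according to one label, whereas the series' design text speaks of transfection. The labels give neither the number of clones nor the time after selection, and nothing in them ties the replicates to separate cultures, so the p-values reflect the spread among these 6 samples, and that spread may be technical. The series' title names methylation of YAP, a transcriptional coactivator, by SETD8 and YAP degradation, and the libraries compare the messenger RNA of the 2 cell populations.

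In an adherens junction, E-cadherin molecules of neighbouring cells bind each other, and their cytoplasmic tails carry p120-catenin (CTNND1), which keeps the cadherin at the membrane, and either β-catenin (CTNNB1) or plakoglobin (JUP). Those armadillo-repeat proteins bind α-catenin (CTNNA1), which connects the complex to actin, while β-catenin outside the junction is also the coactivator of Wnt signalling. In a desmosome, desmogleins and desmocollins hold the cells together, plakoglobin and plakophilins form the plaque under the membrane, and desmoplakin anchors the plaque to keratin filaments. Colon epithelium makes both kinds of junction.

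Counted reads per library were 17056672 to 20471843. Values are given as CPM, the read count scaled to library size after TMM normalization, on which scale 3 counts correspond to 0.150 to 0.174 CPM. Such floors cover counting error only. KMT5A had 65.4, 66.2 and 75.5 CPM in SETD8 libraries, against 45.95, 47.3 and 53.9 CPM in vector libraries. Its level in SETD8 was 1.41 times that in vector libraries (log2 fold change 0.49, edgeR adjusted p = 0.0156). The call was lost without SETD8 replicate 1, 2 or 3 and without vector replicate 2 (edgeR adjusted p = 0.0579 to 0.0965). Libraries were compared in pairs by the chi-square of their counts over genes, per degree of freedom. It was 6.14 to 8.72 between SETD8 libraries, and 13.96 (replicates 1 and 2), 17.7 (2 and 3) and 33.8 (1 and 3) between vector libraries. Vector replicate 1 was the closest of the vector libraries to SETD8 libraries (11.5 to 13.3), and vector replicate 3 the farthest (45.6 to 53.5). Mitochondrial transcripts took 4.91% to 5.36% of counts in SETD8 libraries and 5.95%, 6.08% and 7.77% in vector replicates 1, 2 and 3.

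The cells carried an epithelial profile. Of 10 epithelial identity markers, 9 passed the low-count filter. The list summed to 13216 to 14713 CPM in SETD8 libraries and 12251 to 15124 CPM in vector libraries. Most of these sums came from the keratin genes KRT8, KRT18 and KRT19. Their means were 6304, 1886 and 3457 CPM in SETD8 and 6697, 2212 and 3124 CPM in vector libraries. The intestinal markers VIL1, which encodes villin, and CDH17, which encodes LI-cadherin, did not pass the low-count filter, with at most 4 counts and 1 count in any library. Of the markers of other cell types, 1 of 7 fibroblast, 1 of 5 endothelial and 1 of 6 immune genes passed the filter. The fibroblast list summed to 3.50 to 4.83 CPM in SETD8 libraries and 4.80 to 7.20 CPM in vector libraries, with COL1A2, PDGFRA and DCN at 0 counts in each library. The endothelial list summed to 1.11 to 1.85 CPM in SETD8 libraries and 1.30 to 2.54 CPM in vector libraries, with KDR at 0. The immune list summed to 0.847 to 1.66 CPM in SETD8 libraries and 1.5 to 2.69 CPM in vector libraries, with PTPRC and CD3E at 0.

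SETD8 libraries had less messenger RNA of E-cadherin and of plakophilin 3, and the other 8 junction genes did not pass the test. CDH1 was at 0.69 and PKP3 at 0.73 of the vector level. By edgeR (quasi-likelihood test, adjusted p under 0.05 by Benjamini-Hochberg over 14370 genes), 2 of the 10 genes were called lower and 0 higher, as they were by DESeq2 and limma-voom, and 4 lower and 0 higher had an unadjusted p under 0.05. Of all genes tested 7.83% were called, 4.75% as lower and 3.08% as higher. Unadjusted p-values under 0.05 were common, since KRT18, at 0.0504 by edgeR, ranked 3752 by p among the 14370 genes. Scaled by library totals alone, 9.03% of genes were called, the share of falls among all calls was 38.9% rather than 60.6%, and CDH1 (log2 fold change -0.50) and PKP3 (-0.41) were called as before. Fitted log2 fold changes, always SETD8 over vector, were below 0 for 8 of the 10, against 7179 of the 14370 genes tested, and their median was -0.14, against 0.00 over all genes. The SETD8 and vector values did not overlap for 7 of the 10, each with SETD8 lower, against 15.9% of all genes tested that lay apart in that direction. In 0 of the 10 did SETD8 lie apart above vector, against 14.4% of all genes. In bulk RNA, fewer cells of a kind and less RNA per cell cannot be told apart.

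**Figure D1:**
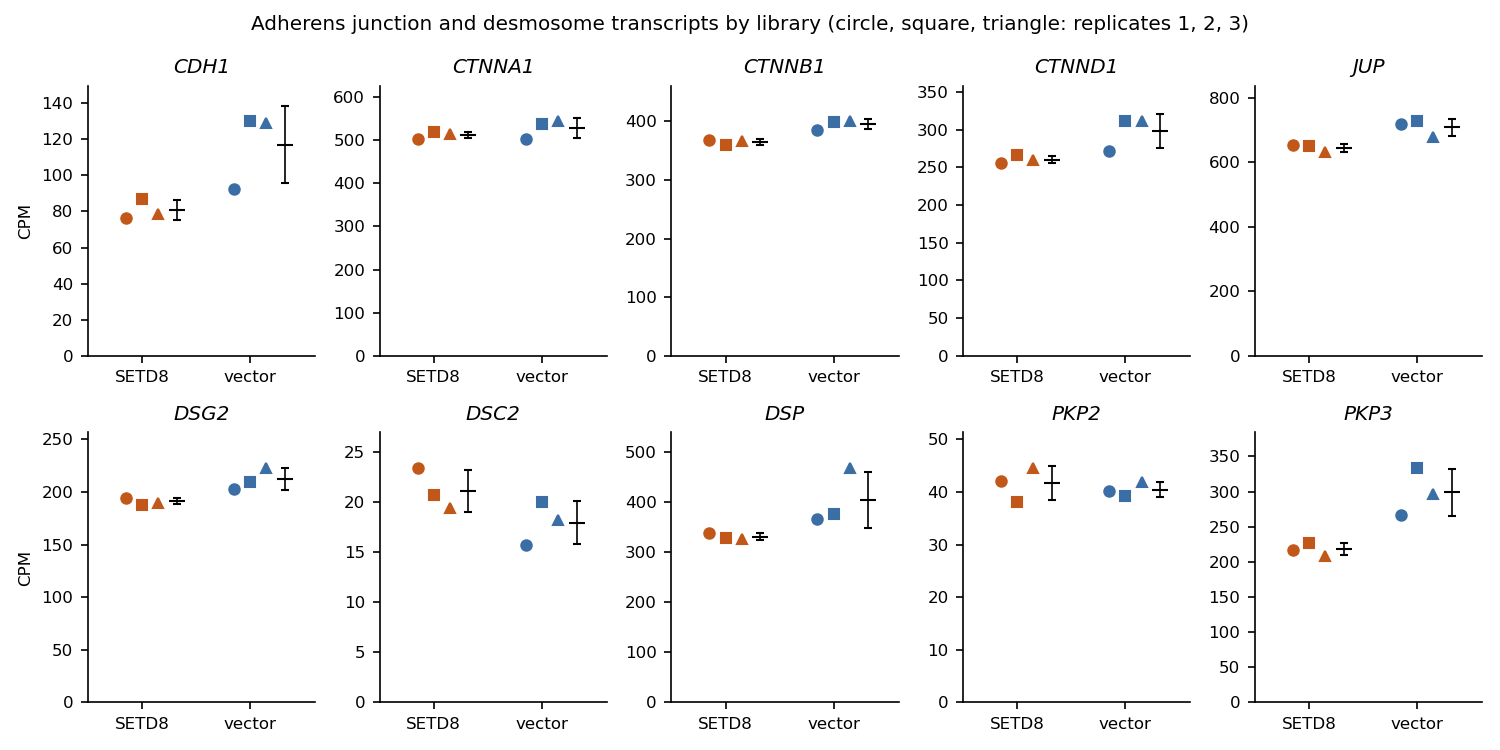
CPM of each junction gene in each library, with its own axis from 0 per panel. Orange points are SETD8 and blue points vector libraries, with circle, square and triangle for replicates 1, 2 and 3, and black bars give the mean ± SD (n = 3 each). For CDH1 the 3 SETD8 libraries lie between 76.5 and 86.8 CPM, below the lowest vector library at 92.4 CPM, and for CTNNA1, DSC2 and PKP2 the groups overlap.

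Upstream sequence was available from RefSeq (GRCh38.p14, 250 bases before to 50 after a start site) for 6 of the 10 genes, CTNNA1, CTNNB1, JUP, DSP, DSG2 and DSC2, with 11 start sites in all. CDH1, CTNND1, PKP2 and PKP3 had no entry. The windows were searched on both strands for the letters CAGGTG, an E-box through which the SNAI and ZEB repressors are known to bind the E-cadherin gene, and for GGAATG, the letters that TEAD factors bind. The E-box letters stood in 4 of the 11 windows, against 20.6% of 35116 windows in the RefSeq table. No share by gene was computed over that table, and by gene the letters stood in 4 of the 6. These were the desmosome genes with an entry: DSP and DSG2 at their single start site, and JUP and DSC2 at 1 of 2 start sites each. The windows of CTNNA1 and CTNNB1 held none. GGAATG was in 0 of the 11 windows, against 14.03% of all. Below are the 3 windows that hold the E-box letters more than once, which 3.49% of all windows do, written 5′ to 3′ on the gene's strand with those letters in capitals. They lie at chr6:7541421-7541720 (plus strand) for DSP, chr18:31497927-31498226 (plus strand) for DSG2 and chr17:41785927-41786226 (minus strand) for the second start site of JUP. Such matches describe the letters and show no binding.
DSP: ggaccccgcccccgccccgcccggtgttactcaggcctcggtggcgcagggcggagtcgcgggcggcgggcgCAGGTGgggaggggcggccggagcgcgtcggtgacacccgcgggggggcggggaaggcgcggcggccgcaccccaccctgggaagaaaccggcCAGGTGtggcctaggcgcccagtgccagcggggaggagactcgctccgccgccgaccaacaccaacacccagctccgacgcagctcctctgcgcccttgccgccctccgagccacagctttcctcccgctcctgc
DSG2: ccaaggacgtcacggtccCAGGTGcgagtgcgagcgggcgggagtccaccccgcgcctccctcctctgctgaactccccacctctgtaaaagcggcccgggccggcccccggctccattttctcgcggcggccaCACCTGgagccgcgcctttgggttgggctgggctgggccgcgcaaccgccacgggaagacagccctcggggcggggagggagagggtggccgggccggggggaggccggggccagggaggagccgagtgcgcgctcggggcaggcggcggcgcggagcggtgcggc
JUP: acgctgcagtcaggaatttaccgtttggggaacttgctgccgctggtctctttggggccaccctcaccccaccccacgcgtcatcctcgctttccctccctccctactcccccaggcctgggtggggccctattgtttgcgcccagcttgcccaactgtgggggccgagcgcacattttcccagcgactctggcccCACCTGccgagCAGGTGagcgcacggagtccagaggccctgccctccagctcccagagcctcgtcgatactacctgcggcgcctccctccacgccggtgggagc
The E-box letters begin 178 and 85 bases before the start site in DSP, 232 and 116 bases before it in DSG2, and 54 and 43 bases before it in JUP.

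CDH1, the gene of the adherens junction's receptor and ligand, lies on chromosome 16 from 68737225 to 68835548 of GRCh38 (ENSG00000039068). It had 76.5, 86.8 and 78.7 CPM in SETD8 replicates 1, 2 and 3, against 92.4, 129.9 and 129 CPM in vector replicates 1, 2 and 3. The groups did not overlap, and vector replicate 1 stood nearest to the SETD8 libraries. The means were 80.7 ± 5.43 CPM in SETD8 and 117 ± 21.5 CPM in vector libraries (SD, n = 3 each), a log2 fold change of -0.54 (SE 0.12, 95% interval -0.88 to -0.20, edgeR adjusted p = 0.0218). Without vector replicate 1, when 23.8% of all genes were called, the log2 fold change was -0.69 (edgeR adjusted p = 2.34e-05). The call was lost without any 1 of SETD8 replicates 1, 2 and 3 (edgeR adjusted p = 0.119, 0.0690 and 0.107) and without vector replicate 2 or 3 (0.138 and 0.0522), while the log2 fold change stayed between -0.45 and -0.59. The shares of all genes called in those fits were 0.0747%, 1.06% and 0.873% without SETD8 replicates 1, 2 and 3, and 0.491% and 7.44% without vector replicates 2 and 3.

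P-cadherin, the classical cadherin encoded by CDH3, was higher per length than E-cadherin in these cells. CDH3 ends 14608 bases before the start of CDH1 on the same strand. It had 147, 165 and 156 CPM in SETD8 libraries, against 186, 206 and 200.2 CPM in vector libraries, and fell by a log2 fold change of -0.35 (SE 0.08, adjusted p by edgeR = 0.0280). In TPM, a level per transcript length, CDH1 stood at 0.527, 0.533 and 0.510 of CDH3 in SETD8 replicates 1, 2 and 3 and at 0.500, 0.636 and 0.652 in vector replicates 1, 2 and 3. Those ratios overlapped between the groups, with vector replicate 1 the lowest of all. N-cadherin (CDH2) did not pass the filter and had at most 4 counts in any library.

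The catenins that bind the E-cadherin tail were abundant and did not pass the test. CTNND1, the p120-catenin gene, had 256, 266 and 259 CPM in SETD8 libraries, against 271, 311 and 311 CPM in vector libraries. The groups lay apart by a narrow margin at vector replicate 1, and the log2 fold change was -0.19 (95% interval -0.43 to 0.04, edgeR adjusted p = 0.167). Without vector replicate 1 it was -0.26 and was called (edgeR adjusted p = 0.0311). CTNNB1 had 369, 359 and 367 CPM in SETD8 libraries, against 385, 399 and 400.2 CPM in vector libraries. Its groups did not overlap, and its log2 fold change was -0.11 (95% interval -0.33 to 0.10, edgeR adjusted p = 0.380). CTNNA1, whose product joins the complex to actin, had 503, 519 and 514 CPM in SETD8 libraries, against 502, 538 and 544 CPM in vector libraries. These values overlapped, and the log2 fold change was -0.04 (95% interval -0.27 to 0.18, edgeR adjusted p = 0.772). JUP, the plakoglobin gene shared by both junctions, had 654, 651 and 631 CPM in SETD8 libraries, against 719.9, 728 and 678 CPM in vector libraries. It lay apart in every library, with a log2 fold change of -0.13 (95% interval -0.37 to 0.10, edgeR adjusted p = 0.325).

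Among the desmosome genes, PKP3 fell and the others did not pass. PKP3 encodes an armadillo-repeat protein of the desmosomal plaque and lies on chromosome 11 from 392614 to 404908 (ENSG00000184363). It had 217, 227 and 209 CPM in SETD8 libraries, against 266, 334 and 296 CPM in vector libraries, each above the highest SETD8 value. The means were 218 ± 8.80 CPM in SETD8 and 299 ± 33.7 CPM in vector libraries (SD, n = 3 each), a log2 fold change of -0.46 (SE 0.09, 95% interval -0.72 to -0.19, edgeR adjusted p = 0.0160). The call was lost without any 1 of SETD8 replicates 1, 2 and 3 (edgeR adjusted p = 0.0960, 0.0643 and 0.0963) and without vector replicate 2 (0.111), with log2 fold changes of -0.36 to -0.49. PKP2, its paralog, had 42.1, 38.1 and 44.6 CPM in SETD8 libraries, against 40.1, 39.2 and 41.9 CPM in vector libraries. The PKP2 values were interleaved, with a log2 fold change of 0.04 (95% interval -0.24 to 0.32, edgeR adjusted p = 0.831). Per length, PKP3 stood at 9.58, 11.1 and 8.74 times PKP2 in SETD8 libraries and at 12.4, 15.8 and 13.1 times in vector libraries, ratios that did not overlap between the groups.

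DSP, which ties the plaque to keratin, had 339, 328 and 327 CPM in SETD8 libraries, against 367, 376 and 469 CPM in vector libraries. The groups lay apart, with vector replicate 3 well above the rest, and the log2 fold change of -0.29 (SE 0.10, 95% interval -0.56 to -0.01) did not pass (edgeR adjusted p = 0.0946). DSP was called without vector replicate 1 (log2 fold change -0.35, edgeR adjusted p = 0.0115) and with no low-count filter, which called 7.29% of genes (-0.28, edgeR adjusted p = 0.0444), and was -0.16 without vector replicate 3. DSG2, the desmoglein of simple epithelia, had 194, 188 and 190 CPM in SETD8 libraries, against 203, 209.8 and 223 CPM in vector libraries. DSG2 values did not overlap, and the log2 fold change was -0.15 (95% interval -0.38 to 0.07, edgeR adjusted p = 0.236). DSC2, its desmocollin counterpart, had 23.4, 20.7 and 19.4 CPM in SETD8 libraries, against 15.7, 19.96 and 18.2 CPM in vector libraries. It was the junction gene with the lowest counts and the largest positive log2 fold change of the 10, 0.24, but its groups overlapped (95% interval -0.12 to 0.60, edgeR adjusted p = 0.267). In TPM, DSG2 stood at 16.7, 18.4 and 19.8 times DSC2 in SETD8 libraries and at 26.1, 21.2 and 24.9 times in vector libraries.

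**Figure D2:**
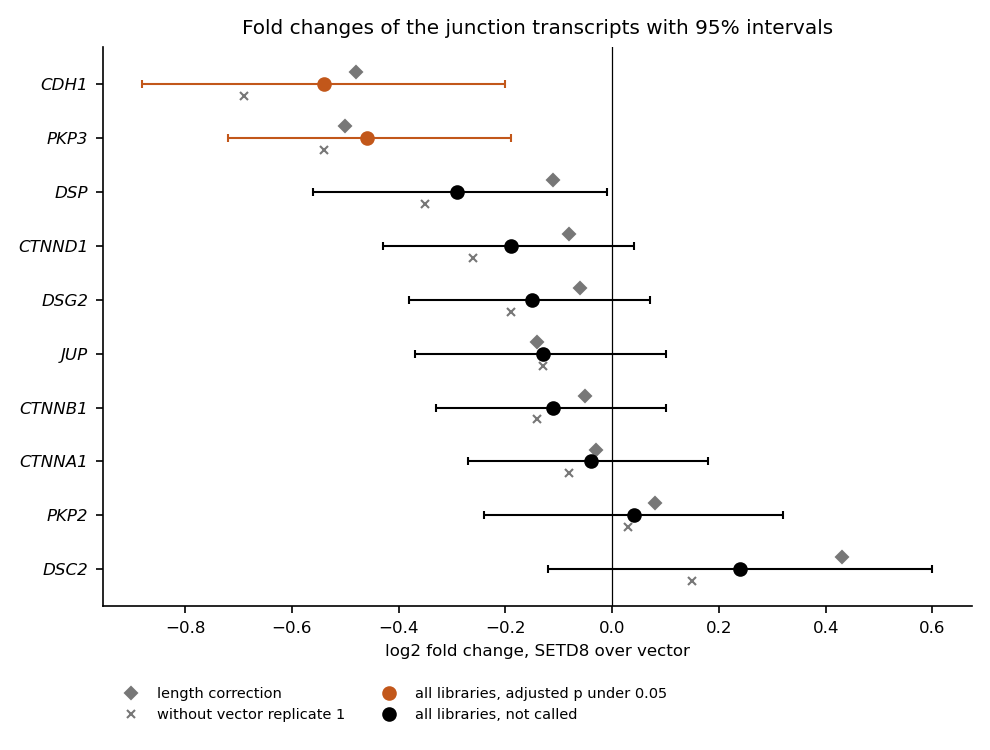
Log2 fold changes of SETD8 over vector for the 10 junction genes. Circles with bars are estimates from all 6 libraries with 95% intervals, orange where the adjusted p was under 0.05. Grey diamonds are estimates after length correction and grey crosses those without vector replicate 1. CDH1 (-0.54) and PKP3 (-0.46) lie farthest below 0, and the DSP estimate moves to -0.11 with length correction.

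Transcript length moved with the direction of change in this comparison. The genes called lower had a median longest annotated transcript of 4977 bases and those called higher 2311 bases, against 3430 bases over all genes tested and 4888 bases over the 10 junction genes. After a correction that removes each library's trend with length, under which 9.60% of genes were called, CDH1 was at -0.48 (edgeR adjusted p = 0.0138) and PKP3, at 2809 bases the shortest of the 10, at -0.50 (edgeR adjusted p = 0.00285). The estimates of genes with long transcripts moved further. DSP (9796 bases) was at -0.11, CTNND1 (6553 bases) at -0.08 and DSG2 (5831 bases) at -0.06, none of them called. DSC2 (12325 bases) was at 0.43 and was then called higher (edgeR adjusted p = 0.0418). Which isoform HCT116 cells make was not measured, so the longest annotated transcript may not be the one expressed.

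The spread between libraries differed by gene and group, without a test. The coefficient of variation between SETD8 libraries was 6.74% for CDH1, 4.04% for PKP3 and 2.00% for DSP, and between vector libraries it was 18.3%, 11.3% and 13.9% for the same genes. It was lower in SETD8 than in vector libraries for these and 6 other junction genes, by little for CTNNB1 (1.54% and 2.14%) and DSC2 (9.77% and 11.9%), whereas PKP2 varied more in SETD8 (7.76%) than in vector libraries (3.49%). Vector replicate 1 had the lowest value of the vector libraries in 8 of the 10 junction genes, CDH1 and PKP3 among them. The exceptions were JUP and PKP2. The same share over all genes tested was not computed. Over all genes tested, too, vector replicate 1 was the vector library closest to SETD8 libraries by chi-square.

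Per transcript length, plakoglobin was the most abundant of the 10 messengers and desmocollin 2 the least. TPM values, computed with the union of annotated exons as the length, averaged 407 ± 10.2 for JUP in SETD8 and 440 ± 12.5 in vector libraries (SD, n = 3 each). PKP3 had 179 ± 9.06 TPM in SETD8 and 243 ± 33.02 TPM in vector libraries, and CTNNA1 had 181 ± 4.46 and 184 ± 16.2 TPM in SETD8 and vector libraries. The ranges of PKP3 and CTNNA1 overlapped in SETD8 libraries but not in vector libraries, where PKP3 was higher. That order depends on the length used, since with the longest transcript CTNNA1 averaged 317 TPM over all libraries and PKP3 215 TPM. DSP, DSG2, CTNNB1 and CTNND1 followed, with mean TPM over all libraries of 113, 101, 98.6 and 98.2, and each overlapped its neighbour in that order over all libraries. CDH1 came next, at 40.7 ± 3.18 TPM in SETD8 and 58.6 ± 12.9 TPM in vector libraries, below the CTNND1 range in each library. PKP2 had 18.4 ± 1.26 TPM in SETD8 and 17.6 ± 1.37 TPM in vector libraries, and DSC2 had 5.28 ± 0.505 TPM in SETD8 and 4.42 ± 0.650 TPM in vector libraries. JUP exceeded CTNNB1 by 4.27, 4.38 and 4.16 times in SETD8 libraries and by 4.51, 4.40 and 4.09 times in vector libraries, so this ratio overlapped between the groups. With the longest transcript as the length, the same ratio was 2.41 to 2.54 in SETD8 and 2.37 to 2.61 in vector libraries. By that length 4 of the 10 genes kept their place in the order, and CTNNB1 stood at a mean of 181 TPM.

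**Figure D3:**
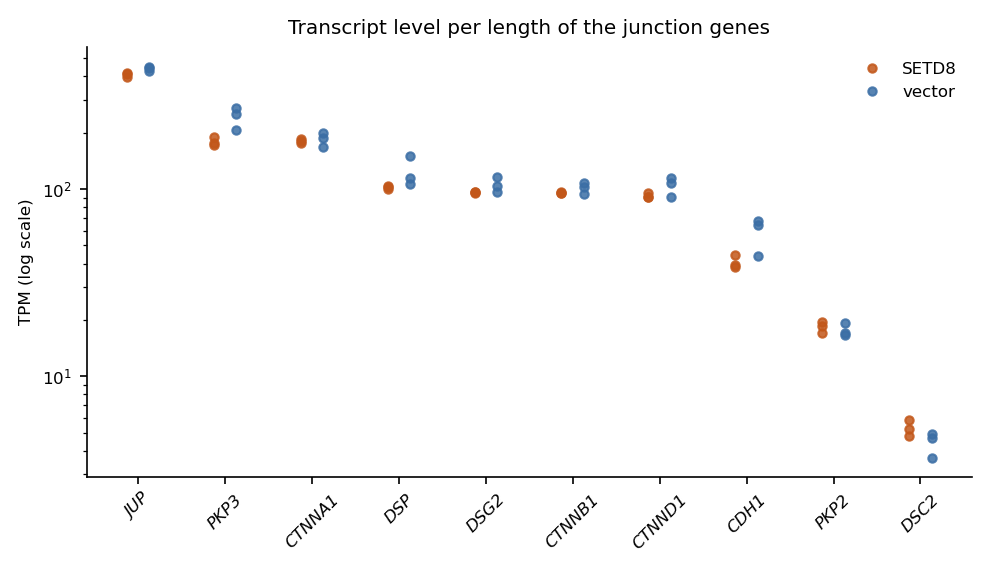
TPM of the 10 junction genes per library on a log axis, in order of the mean over all libraries. Orange points are SETD8 and blue points vector libraries. JUP has the highest level, 396 to 451 TPM, and DSC2 the lowest, 3.68 to 5.81 TPM.

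DSG2 and DSC2 belong to a cluster of 7 desmosomal cadherin genes that spans 559 kb of chromosome 18. Of these, 3 passed the low-count filter, and the third was DSC3, with 2.91, 3.57 and 2.79 CPM in SETD8 libraries, against 3.82, 4.14 and 3.98 CPM in vector libraries, a log2 fold change of -0.36 (edgeR adjusted p = 0.309). The keratinocyte desmogleins DSG1, DSG3 and DSG4 and the desmocollin DSC1 had at most 4 counts in any library. Of the 10 other desmosome genes in the list, 5 were tested, with 0 lower and 0 higher by edgeR, DESeq2 and limma-voom, 1 lower and 1 higher at an unadjusted p under 0.05, and a median log2 fold change of -0.17. PERP, a desmosome-associated membrane protein and p53 target, had 310.1, 316 and 342 CPM in SETD8 libraries, against 291, 278 and 252 CPM in vector libraries (log2 fold change 0.24, edgeR adjusted p = 0.106). PERP was called higher with length correction (edgeR adjusted p = 0.0445), with library totals (0.0444) and without vector replicate 1 (0.0304). The plakin genes EVPL (-0.22, edgeR adjusted p = 0.142) and PPL (-0.17, edgeR adjusted p = 0.278) did not pass either.

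The genes of adherens junction partners, among them linkers to actin and microtubules, included called falls of messenger RNA. Of 25 adherens junction partners, 19 were tested, 3 fell and 0 rose by edgeR, and the median log2 fold change was -0.26. The number called lower was 6 by DESeq2, 2 by limma-voom and 9 at an unadjusted p under 0.05, each with 0 higher, and 7 partners were called with no low-count filter. Over all genes, DESeq2 called 907 lower and limma-voom 630 lower, and 7.29% were called with no low-count filter. Unadjusted p-values under 0.05 were common over all genes, as given above. Leaving out 1 library gave 0 to 10 called partners, with 0 without SETD8 replicate 1 or 2 or vector replicate 2. The 10 were called without vector replicate 1, when 23.8% of all genes were called. VCL encodes vinculin, which α-catenin recruits under tension. It had 173, 173 and 191 CPM in SETD8 libraries, against 226, 326 and 342 CPM in vector libraries. The groups lay apart, and the log2 fold change was -0.73 (SE 0.13, adjusted p by edgeR = 0.00861). PLEKHA7, which links p120-catenin to microtubules, had 15.04, 17.2 and 12.8 CPM in SETD8 libraries, against 16.3, 27.6 and 28.2 CPM in vector libraries. Its values overlapped at vector replicate 1 although it was called (log2 fold change -0.68, SE 0.19, adjusted p by edgeR = 0.0471), and it lost the call with library totals (0.0620), limma-voom (adjusted p = 0.0714) and GC correction (0.0600). CDH3 was the other called partner. The α-actinin gene ACTN1 had a log2 fold change of -0.32 and did not pass (edgeR adjusted p = 0.0533), but it was called by DESeq2 (adjusted p = 0.0267) and by edgeR with GC correction (0.0432), length correction (0.0492), no low-count filter (0.0177) or the stricter filter (0.0492). ACTN1 was also called without vector replicate 1 (edgeR adjusted p = 0.00291) or 3 (0.0437). The calls of VCL, PLEKHA7 and CDH3 were all lost when SETD8 replicate 1 was left out (edgeR adjusted p = 0.0663, 0.156 and 0.155), as also without SETD8 replicate 2 (0.0571, 0.0916 and 0.0754) and without vector replicate 2 (0.0741, 0.206 and 0.155). PLEKHA7 and CDH3 also lost theirs without SETD8 replicate 3 (0.190 and 0.122), and PLEKHA7 without vector replicate 3 (0.138).

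Called genes among those that act on β-catenin went in both directions, while CTNNB1 itself did not pass. Of 19 genes for β-catenin destruction and its nuclear partners, 17 were tested, 1 fell, 2 rose and 14 were not called. Their median log2 fold change was -0.10. Of all genes tested, 4.75% were called lower and 3.08% higher. BCL9L, a nuclear coactivator of β-catenin, had 276, 278 and 266 CPM in SETD8 libraries, against 381, 417 and 476 CPM in vector libraries (log2 fold change -0.63, SE 0.09, adjusted p by edgeR = 0.00511). PYGO2, which BCL9 proteins bring to β-catenin, had 60.4, 62.1 and 58.7 CPM in SETD8 libraries, against 52.2, 43.4 and 40.2 CPM in vector libraries (log2 fold change 0.42, SE 0.11, adjusted p by edgeR = 0.0340). The kinase gene GSK3A had 73.8, 78.6 and 82.01 CPM in SETD8 libraries, against 65.1, 57.2 and 61.1 CPM in vector libraries (log2 fold change 0.35, SE 0.09, adjusted p by edgeR = 0.0335). None of those 3 genes, named here for their small adjusted p, had overlapping groups. Of all genes tested, 15.9% lay apart with SETD8 lower and 14.4% with SETD8 higher. The ubiquitin ligase gene BTRC did not pass (log2 fold change -0.29, edgeR adjusted p = 0.112), but was called without vector replicate 1 (-0.40, edgeR adjusted p = 0.00411). BCL9L lost its call without SETD8 replicate 1 (edgeR adjusted p = 0.0508) and in no other alternative run. PYGO2 and GSK3A lost theirs without SETD8 replicate 1, 2 or 3 and without vector replicate 2 (edgeR adjusted p = 0.102 to 0.157).

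**Figure D4:**
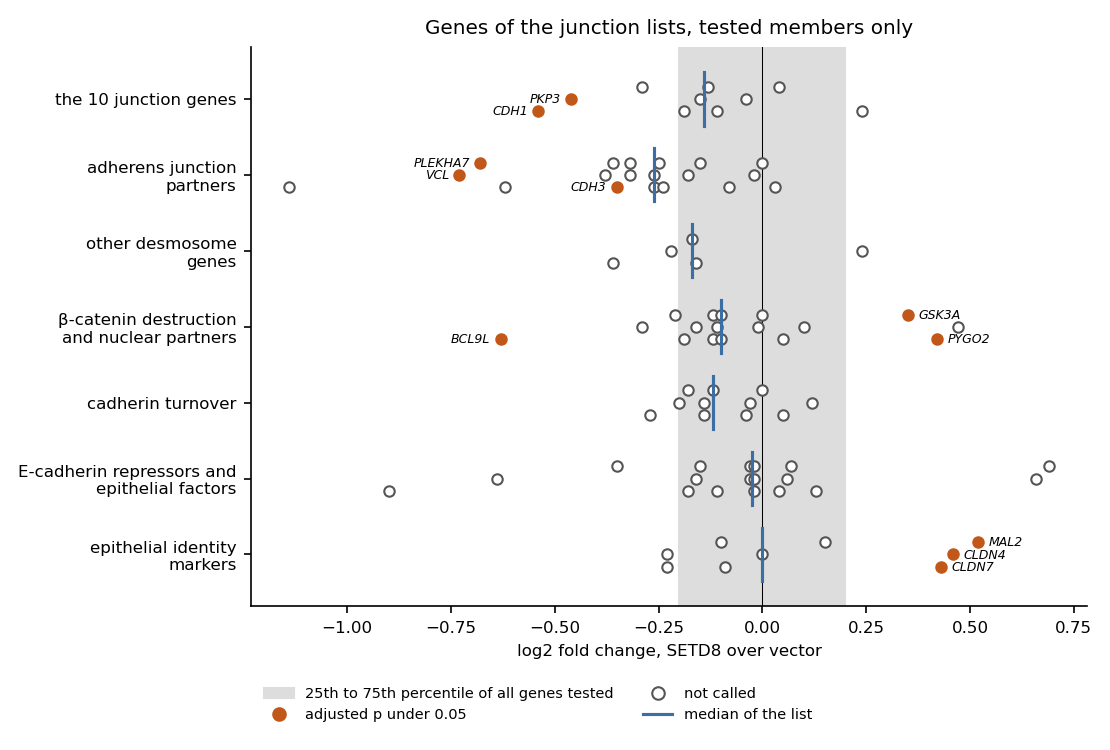
Log2 fold changes of SETD8 over vector for the tested genes of each list, 1 circle per gene, filled orange where the edgeR adjusted p was under 0.05. Blue lines are list medians, and the grey band runs from the 25th to the 75th percentile of all genes tested, -0.20 to 0.20. The called adherens junction partners lie below the band and the called epithelial markers above it.

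Known regulators of cadherin level showed no change that passed edgeR's test. Of 11 genes of cadherin turnover, all were tested, with 0 lower and 0 higher and a median log2 fold change of -0.12. The phosphatase gene PTPN1, whose product acts on cadherin-bound β-catenin, came closest (-0.27, edgeR adjusted p = 0.0525). It was called by DESeq2 (adjusted p = 0.0316) and by edgeR with GC correction (0.0425), length correction (0.0402) or the stricter filter (0.0473), while ADAM15 (-0.20) and GGA1 (-0.14) did not pass (edgeR adjusted p = 0.226 and 0.367). PTPN1 was also called without vector replicate 1 (edgeR adjusted p = 0.0241) or 3 (0.0399), and ADAM15 without vector replicate 3 (0.0168). Of 23 E-cadherin repressors and epithelial transcription factors, 18 were tested, with 0 lower and 0 higher and a median of -0.03. Repressor genes of the SNAI, ZEB and TWIST families had lower CPM than TCF3, CTBP1 and CTBP2 in the same list. CPM is not scaled to transcript length, so it does not rank levels between these genes. TCF3 had 185, 181 and 192 CPM in SETD8 libraries, against 194, 185 and 184 CPM in vector libraries. CTBP1 had 116 to 129 CPM and CTBP2 118 to 145 CPM over the libraries. SNAI1 had 10.3, 10.04 and 7.56 CPM in SETD8 libraries, against 9.70, 9.78 and 9.10 CPM in vector libraries. ZEB1 had 0.900, 0.673 and 1.51 CPM in SETD8 libraries, against 0.927, 1.95 and 1.90 CPM in vector libraries, and ZEB2 had 0 counts in each library. TWIST1 had 2.17, 2.23 and 2.50 CPM in SETD8 libraries, against 1.69, 1.35 and 1.33 CPM in vector libraries (log2 fold change 0.66, edgeR adjusted p = 0.168). FOXA1 (0.69), KLF5 (-0.35) and CTBP2 (-0.18) did not pass (edgeR adjusted p = 0.116, 0.142 and 0.207), although KLF5 was called with no low-count filter (0.0160) and without vector replicate 1 (0.000269). At an unadjusted p under 0.05, edgeR gave 1 lower and 2 higher genes in this list and 1 lower gene in the turnover list, and DESeq2 called 0 and 1 and limma-voom 0 and 0 in these lists.

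Among epithelial markers outside the junction list 3 were called higher. Of 10 such markers, 9 were tested, 0 were called lower and 3 rose by edgeR, DESeq2 and limma-voom, with a median of 0.00, and 1 was lower at an unadjusted p under 0.05. That gene was SPINT1 (log2 fold change -0.23, edgeR adjusted p = 0.112), which like ST14 (-0.10) had each SETD8 value below each vector value, and KRT18 was also at -0.23 (edgeR adjusted p = 0.193). EPCAM had 263, 259 and 263 CPM in SETD8 libraries, against 249, 275 and 259 CPM in vector libraries. The tight junction genes CLDN4 (log2 fold change 0.46, SE 0.09, adjusted p by edgeR = 0.0156) and CLDN7 (0.43, SE 0.12, adjusted p by edgeR = 0.0444) rose, as did MAL2, which serves apical transport (0.52, SE 0.12, adjusted p by edgeR = 0.0226). CLDN4 had 380.3, 340.3 and 378 CPM in SETD8 libraries, against 280.1, 282 and 238 CPM in vector libraries. CLDN4, CLDN7, MAL2, SPINT1, ST14 and KRT18 are named here after their values were seen. The calls of CLDN4, CLDN7 and MAL2 were lost without SETD8 replicate 1, 2 or 3 and without vector replicate 2 (edgeR adjusted p = 0.0505 to 0.165).

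The genes whose profile over the 6 libraries was most like that of CDH1 were sought among 7208 genes with a mean of at least 20 CPM. Likeness was the root mean square difference between log2 CPM profiles, each centred on its mean. HID1 (0.043), TNIK (0.052) and TNFRSF9 (0.057) were nearest. HID1 had 28.9, 30.5 and 28.9 CPM in SETD8 libraries, against 33.5, 45.6 and 44.9 CPM in vector libraries, with vector replicate 1 again between the others. Within the junction genes PKP3 was nearest to CDH1 (0.108), DSP (0.195) and CTNND1 (0.196) followed, and PKP2 was farthest (0.344) of those compared. Set against the 7208 genes, PKP3 stood at rank 87, DSP at 767, CTNND1 at 785 and PKP2 at 3840, so many genes outside the junction list were nearer to CDH1.

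Few reads were assigned to genes that overlap or copy a junction gene. Such counts do not show how many reads fell on shared exons, since the settings of the counting are not given. The genes that overlap an exon of CDH1, CTNNA1, CTNND1 or DSG2, and the processed pseudogene CTNNA1P1, had at most 13 counts in a library and at most 0.138% of the count of the junction gene they overlap or copy. No source used here gives the strand setting of the counting. Reads on an opposite-strand gene and on the junction gene therefore cannot be told apart within their shared exons. Such genes were AC099314.1 for CDH1 (5.62% of its exon bases) and DSG2-AS1 for DSG2 (2.76%). For CTNNA1 they were LRRTM2 (5.04%) and AC034243.1 (0.85%).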

How the data were processed

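Messenger RNA of 6 HCT116 libraries was measured, 3 with SETD8 overexpression and 3 with an empty vector. Per the labels' protocols, libraries were poly(A)-selected and made with a strand-marking Illumina kit. The authors deposited whole-number read counts per Ensembl gene, not normalized, 1 column per library. HISAT2, STAR, featureCounts, HTSeq, GRCh38 and hg38 are named in the submitters' processing notes, with no role. For the counting, annotation and strand setting were not given in the sources. All 58735 IDs matched GENCODE release 29 (GRCh38), which gave symbols, positions and lengths. Columns named NC were taken as the vector group, the only group other than SETD8, with their number as the replicate, and 0 columns belonged to other samples.

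filterByExpr left 14370 genes and dropped 44365. The 2-sided comparison of the groups had no covariates and used the robust quasi-likelihood test of edgeR 4.0.16 (R 4.3.3, with limma 3.58.1), TMM scaling and Benjamini-Hochberg adjustment over all genes tested (threshold 0.05). The common dispersion gave a biological coefficient of variation of 0.116. The SE was taken as the log2 fold change over the root of F, and 95% intervals use 4 degrees of freedom, so they are wider than the test. TPM values are from counts and union exon length. Alternatives were other scalings, filters, DESeq2 1.42.0, limma-voom, a replicate block, GC and length corrections (lowess offsets, span 0.3) and leaving out each library. On simulated counts of this comparison, with 200 changed genes among 14370, the test recovered 58.5% of genes changed 1.5-fold and 84.9% of those changed 2-fold. The members, gene lists and tests were chosen with earlier results of these data known. Named genes are the 10 members, KMT5A, up to 4 genes per pathway list by adjusted p and the 3 genes with profiles most like CDH1, and others are given as list or marker values; 1 gene named by this rule is not reported here. Figures were drawn with matplotlib 3.10.9.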

Additional observations from a re-analysis of the deposited data

How the results depend on the processing

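The calls of CDH1 and PKP3 and the sign of 8 of the 10 log2 fold changes below 0 held under each alternative that kept all 6 libraries: 2 other scalings, 2 other filters, DESeq2, limma-voom, GC and length corrections and the replicate block. Genes called numbered 1125 of all tested, 1646 with DESeq2 and 2000 with no low-count filter. Leaving out 1 library each gave 11 to 3509 called genes and 0 to 4 called junction genes, 11 of all genes without SETD8 replicate 1 and 3509 without vector replicate 1. The PKP2 estimate then ranged from -0.01 (without SETD8 replicate 3) to 0.10. Genes called in the 5 pathway lists together numbered 6, against 10 with DESeq2, 11 with no low-count filter and 0 to 18 when 1 library was left out. The order of levels per length held for 4 of the 10 genes with the longest transcript as length. Same-numbered libraries did not deviate together (correlations of 0.0247, 0.00778 and -0.0637), but such values cannot exclude that they were handled together. With the replicate block 1177 genes and the same 2 junction genes were called. The replicate block with length correction called 1195 genes. The cause of these shifts was not tested. At this depth the junction genes had 288 or more counts per library.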
